A study of Mus musculus with 28 samples.

Results

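The genes described here were the interleukin 20 subgroup of cytokines and the receptor chains through which they act, 6 rows of a table of 29068 genes. The rule was a list of gene symbols, drawn up with earlier results of these data known. The ligands were Il19, Il20 and Il24, and the receptor chains were Il20ra, Il20rb and Il22ra1. Skin at the wound site of C57BL/6J mice (MLKL+/+) was collected on Day 0, Day 3, Day 5, Day 7, Day 10, Day 12 and Day 14 of natural wound healing, with 4 RNA-seq libraries a day. Per the study's methods, the mice were 8 weeks old and of both sexes, the wound was a punch biopsy of 6 mm on the back, and the whole wound site with scab and margin was taken. No genotype or drug differed between the groups, and all libraries came from 1 strain. The labels name the earliest group Day0 and call it the control, whereas the study counts the day of injury as day 1. The name Day 0 is kept here. The series' own description speaks of 5 repeats, and the 4 libraries a day that were analysed here are those of the table. Nothing in the labels says that the 4 libraries of a day came from separate animals, so the p-values below measure the spread between libraries, which may be technical.

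These cytokines belong to the interleukin 10 family. IL-19, IL-20 and IL-24 bind a type I receptor made of IL-20RA and IL-20RB, and IL-20 and IL-24 also bind a type II receptor made of IL-22RA1 and IL-20RB. IL-22RA1 pairs with IL-10RB to bind IL-22. The receptors are carried mainly by epithelial cells such as keratinocytes, signal through JAK1, TYK2 and STAT3, and are known in skin for raising antimicrobial and stress keratin genes and lowering terminal differentiation genes. Myeloid cells and keratinocytes are known sources of the ligands.

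The ligand genes lay side by side on mouse chromosome 1 in the order Il24, Il20 and Il19, all on the minus strand, followed by Il10 on the plus strand (GENCODE annotation of build mm10). Il24 spanned chr1:130882074-130887454, Il20 spanned chr1:130906985-130911451 and Il19 spanned chr1:130932656-130940115. The gaps were 19.5 kb between Il24 and Il20, 21.2 kb between Il20 and Il19, and 79.7 kb between Il19 and Il10 at chr1:131019845-131024974, with no protein-coding gene in between. The receptor genes were dispersed. Il20ra lay at chr10:19712570-19760053 on the plus strand, 77.9 kb downstream of Il22ra2, the gene of a soluble decoy receptor for IL-22. Il20rb lay at chr9:100457719-100486788 on the minus strand and Il22ra1 at chr4:135728172-135752140 on the plus strand. Il20ra overlaps Gm33332 on the other strand. Strandedness of the counting is not given in the sources used here, and Gm33332 held between 0 and 4 counts a library.

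RefSeq promoter windows of build GRCm38.p6 (250 bases before to 50 after the start site) were matched for 5 of the 6 genes, all but Il24. The 250 bases before the start site are shown for Il19 and Il20, since Il19 was raised at Day 3 while its neighbour Il20 stayed near 0 counts throughout. Both are written 5′ to 3′ on the minus strand, Il19 at chr1:130940116-130940365 and Il20 at chr1:130911297-130911546. The capitals mark matches to a STAT motif (TTCNNNGAA) and to an NF-kB motif, searched on both strands.
Il19: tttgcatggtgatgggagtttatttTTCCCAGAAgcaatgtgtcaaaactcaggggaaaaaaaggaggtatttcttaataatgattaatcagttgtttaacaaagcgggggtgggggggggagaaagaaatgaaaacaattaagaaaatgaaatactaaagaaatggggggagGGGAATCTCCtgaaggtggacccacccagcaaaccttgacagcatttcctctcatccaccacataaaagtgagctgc
Il20: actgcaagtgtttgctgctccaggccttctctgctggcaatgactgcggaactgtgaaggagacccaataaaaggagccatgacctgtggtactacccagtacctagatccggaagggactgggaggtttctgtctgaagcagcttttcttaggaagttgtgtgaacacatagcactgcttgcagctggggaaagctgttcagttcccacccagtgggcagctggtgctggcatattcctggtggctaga
The Il19 window held 1 STAT match starting 225 bases before the start site and 1 NF-kB match starting 77 bases before it, and these did not overlap. The Il20 window held neither, its start site lying 70 bases from the nearest GENCODE start, against 0 for Il19. Of 32851 mouse promoter windows of the same length, 8.30% held the STAT motif and 4.51% the NF-kB motif. An AP-1 motif (TGANTCA) was found once each in the windows of Il20ra and Il22ra1 and in 7.81% of all windows, and TATAAA was found in none of the 5 windows and in 13.62% of all. The Il20rb window held none of these motifs. A match describes letters and is not a measured binding site.

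Libraries held 36706513 to 40655764 counts (median 39499595). All 12 pan-keratinocyte markers had counts in every library, as did the markers of fibroblasts, macrophages, endothelium, skeletal muscle and fat, so the samples were mixed tissue in which fewer cells of a type and less RNA per cell cannot be told apart. The Day 0 libraries fell into pairs. Replicates 1 and 4 had higher summed pan-keratinocyte markers (9550 and 10360 CPM, counts scaled to a common library size) than replicates 2 and 3 (5902 and 6168 CPM), and lower summed fibroblast markers (17290 and 9681 CPM against 40000 and 38640 CPM). The coefficient of variation between libraries was 26.5% on Day 0 and 5.77% to 10.8% on the other days. The fit shared 1 estimate of the spread per gene over all days, so its p-values against Day 0 may be too small. For the 6 genes and the pathway genes named below, calls against Day 0 that either pair decides are given with and without it.

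On a scale per transcript length, Il20rb was the most abundant member in Day 0 skin (30.2 ± 1.43 fragments per kilobase of transcript and library size, FPKM, SD, n = 4). Il20ra (4.19 ± 1.99 FPKM) and Il22ra1 (3.02 ± 1.00 FPKM) followed and did not differ beyond their spread. Il19 stood at 1.07 ± 0.63 FPKM, and Il24 (0.063 ± 0.11 FPKM) and Il20 (0.030 ± 0.037 FPKM) were at the limit of detection. On Day 3 the order was different. Il19 (11.4 ± 1.53 FPKM) and Il20rb (9.12 ± 1.30 FPKM) led with overlapping libraries, Il24 came next (6.45 ± 0.70 FPKM), and Il20ra (1.42 ± 0.58 FPKM), Il22ra1 (1.28 ± 0.28 FPKM) and Il20 (0.050 ± 0.070 FPKM) were lower.

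**Figure D1:**
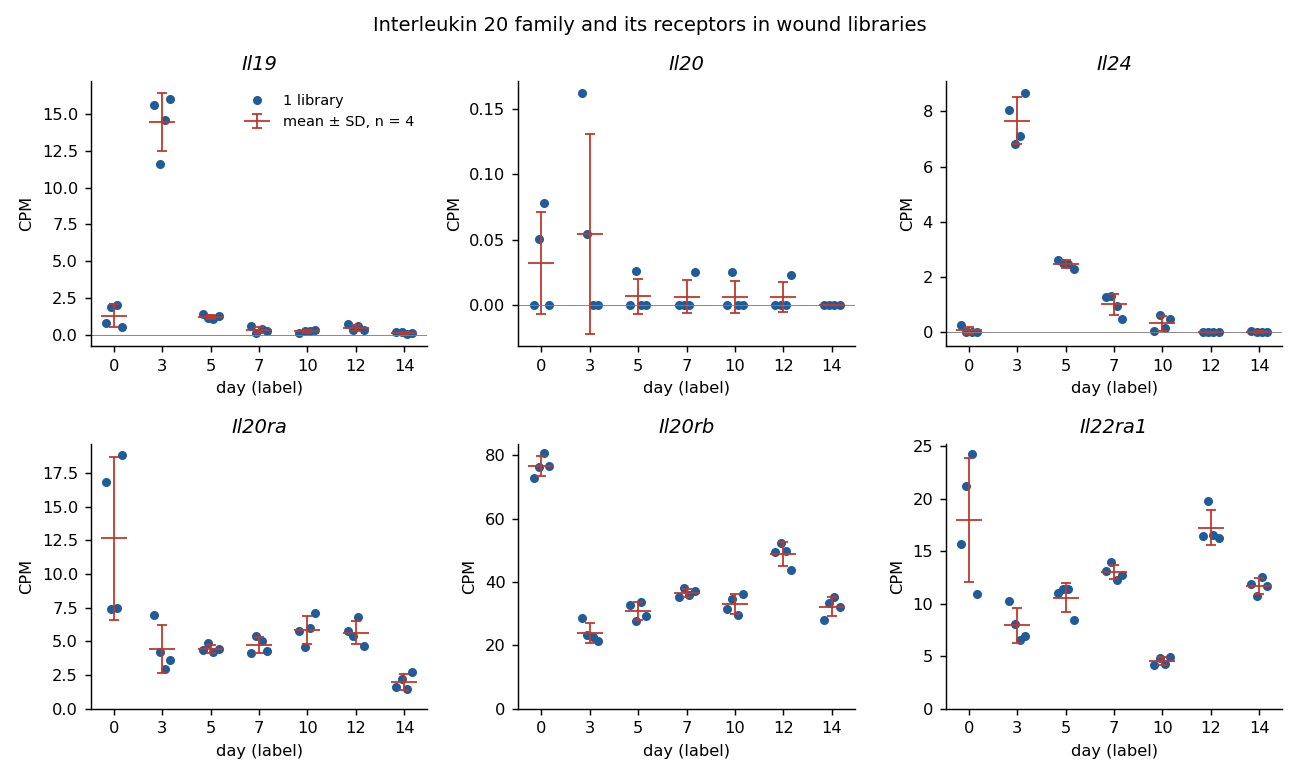
CPM (y axis, linear, separate scale in each panel) of the 6 genes by labelled day (x axis), with 1 point a library and the mean ± SD of 4 libraries in red. Il19 and Il24 were highest on Day 3, Il20 stayed under 0.2 CPM throughout, and the receptor chains had their highest mean on Day 0.

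Il19 and Il24 rose together at Day 3 and then parted. In the fit on all libraries Il19 was raised at Day 3 alone and was below Day 0 from Day 7 on, while Il24 remained above Day 0 through Day 10. Il20 stayed close to 0 counts on all days.

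The Il19 counts in Day 0 replicates 1 to 4 were 29, 76, 77 and 19. On Day 3 they were 578, 428, 534 and 580, every one above every Day 0 library. Il19 rose 11-fold at Day 3 (log2 fold change 3.46 ± 0.32, SE, edgeR quasi-likelihood test, adjusted p = 2.86e-10), with log2 values of 2.88 without Day 0 replicates 1 and 4 and 4.52 without replicates 2 and 3. By Day 5 the counts were 53, 44, 40 and 48, within the Day 0 range (log2 fold change -0.10 ± 0.34, adjusted p = 0.819). This Day 5 value turned with the Day 0 libraries used, being -0.68 without replicates 1 and 4 (adjusted p = 0.0413) and 0.92 without replicates 2 and 3 (adjusted p = 0.0289).

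From Day 7 on Il19 was low. The counts were 22, 4, 15 and 10 at Day 7, 4, 10, 10 and 12 at Day 10, 30, 14, 25 and 14 at Day 12, and 8, 8, 2 and 6 at Day 14. The Day 10 and Day 14 libraries all lay below Day 0, and those of Day 7 and Day 12 overlapped it (exact permutation test of log2 CPM, p = 0.0571 and 0.0857). Il19 fell by 2.00 on the log2 scale at Day 7 (adjusted p = 0.000132), fell by 2.52 at Day 10 (adjusted p = 1.31e-05), fell by 1.45 at Day 12 (adjusted p = 0.00199) and fell by 3.15 at Day 14 (adjusted p = 7.57e-07). Without Day 0 replicates 2 and 3 these log2 fold changes were -0.99, -1.51, -0.43 and -2.07, and the Day 12 call was lost (adjusted p = 0.400). Without replicates 1 and 4 they were -2.57, -3.10, -2.03 and -3.73, all called.

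Il24 encodes a cytokine of the same receptors. Its Day 0 counts were 10, 0, 1 and 0, so that replicate 1 alone carried most of them. On Day 3 they were 298, 251, 260 and 314, at Day 5 they were 100, 96, 94 and 85, and at Day 7 they were 50, 52, 38 and 19, with no library of these days overlapping Day 0. Il24 rose at Day 3 by 6.66 ± 0.56 (log2, SE, adjusted p = 3.1e-11), at Day 5 by 5.04 ± 0.58 (adjusted p = 1.8e-08) and at Day 7 by 3.75 ± 0.61 (adjusted p = 9.83e-06).

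These sizes rest on few Day 0 counts. Summed over libraries, 1123 Day 3 counts against 11 Day 0 counts gave a ratio of 102 (exact 95% interval 56.6 to 204, counting error only), and without Day 0 replicate 1 the fitted log2 values on Days 3, 5 and 7 were 9.37, 7.71 and 6.41. Without Day 0 replicates 2 and 3 they were 5.84, 4.18 and 2.88, and all were called. On Day 10 the Il24 counts were 2, 25, 7 and 19 and overlapped Day 0 (exact permutation test of log2 CPM, p = 0.114). The log2 fold change of 2.15 ± 0.71 passed the test (adjusted p = 0.0127), and the call was lost without Day 10 replicate 2 (1.66, adjusted p = 0.0766) or without Day 0 replicates 2 and 3 (1.28, adjusted p = 0.163), and the value was 4.81 without Day 0 replicate 1. Counts were 0, 1, 1 and 0 at Day 12 and 2, 0, 1 and 0 at Day 14, for which no fold is given.

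The sizes of these changes also rest on the scale, since adding a constant understates the change of low genes. By limma on log2(FPKM + 1) the same changes were called, with smaller values. For Il19 they were 2.62 at Day 3, -0.66 at Day 7, -0.74 at Day 10 and -0.82 at Day 14. For Il24 they were 2.81 at Day 3, 1.55 at Day 5, 0.82 at Day 7 and 0.28 at Day 10. On that scale the largest falls of the receptor chains Il20ra and Il22ra1, described next, were -1.51 at Day 14 and -1.13 at Day 10.

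Il20 counts were 0, 2, 3 and 0 at Day 0 and 6, 2, 0 and 0 at Day 3. Each of Days 5, 7, 10 and 12 had 1 count over its 4 libraries and Day 14 had 0. A count of 0 allows up to 3 counts in a library. Il20 did not pass the filter on low counts, and its Day 3 and Day 0 libraries overlapped. No change in Il20 was thus detected, and a small one could not be at this depth. Its highest count in any library was 6.

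The receptor chains were lower in wounds than in Day 0 skin, each with its own course. In the fit on all libraries Il20rb fell on all 6 later days, Il20ra fell on all 6 days and most at Day 14, and Il22ra1 fell most at Day 10 and had returned to the Day 0 range at Day 12.

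Il20rb encodes the chain common to both receptor types. Its counts were 2755, 3022, 3113 and 2753 at Day 0, 1063, 855, 828 and 781 at Day 3, 1249, 1058, 1278 and 1077 at Day 5, and 1362, 1492, 1405 and 1466 at Day 7. They were 1255, 1404, 1156 and 1462 at Day 10, 2109, 2319, 2197 and 1895 at Day 12, and 1160, 1413, 1439 and 1344 at Day 14. No later library reached the lowest Day 0 library. Il20rb was 3.19-fold lower at Day 3 (log2 fold change -1.67 ± 0.09, SE, adjusted p = 1.1e-15), 2.49-fold lower at Day 5 (adjusted p = 2.29e-13), 2.09-fold lower at Day 7 (adjusted p = 2.39e-11) and 2.32-fold lower at Day 10 (adjusted p = 2.89e-12). It was 1.57-fold lower at Day 12 (adjusted p = 3.18e-07) and 2.37-fold lower at Day 14 (adjusted p = 7.46e-13). Both Day 0 pairs gave calls in the same direction on every day.

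Il20ra encodes the chain that completes the type I receptor. Its counts were 637, 294, 290 and 676 at Day 0, 258, 156, 107 and 130 at Day 3, 166, 185, 159 and 164 at Day 5, and 160, 210, 197 and 171 at Day 7. They were 229, 185, 236 and 287 at Day 10, 245, 240, 300 and 202 at Day 12, and 67, 92, 59 and 115 at Day 14. In CPM every later library lay below every Day 0 library, although Day 0 replicates 1 and 4 were more than 2-fold above replicates 2 and 3.

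The log2 fold change of Il20ra was -1.51 ± 0.26 at Day 3 (SE, adjusted p = 1.37e-05), -1.50 at Day 5 (adjusted p = 1.76e-05), -1.42 at Day 7 (adjusted p = 4.98e-05), -1.10 at Day 10 (adjusted p = 0.000772), -1.16 at Day 12 (adjusted p = 0.000544) and -2.66 ± 0.28 at Day 14 (adjusted p = 4.02e-09). Without Day 0 replicates 1 and 4 the falls on Days 3, 5, 7 and 14 were called with smaller values (-0.75, -0.74, -0.66 and -1.90), and those at Day 10 (-0.34, adjusted p = 0.203) and Day 12 (-0.40, adjusted p = 0.141) were not.

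Il22ra1 encodes the chain that serves both the type II receptor and the IL-22 receptor. Its counts were 593, 837, 934 and 391 at Day 0, 379, 295, 239 and 252 at Day 3, 420, 434, 434 and 313 at Day 5, and 509, 544, 482 and 504 at Day 7. They dropped to 165, 196, 167 and 197 at Day 10, were 699, 874, 729 and 704 at Day 12, and were 492, 452, 509 and 489 at Day 14. The Day 3 and Day 10 libraries lay below all of Day 0, and the other days overlapped it.

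Il22ra1 was 2.27-fold lower at Day 3 (log2 fold change -1.18 ± 0.17, SE, adjusted p = 4.65e-07) and 3.96-fold lower at Day 10 (-1.98 ± 0.17, adjusted p = 2.05e-10), and both calls held without either Day 0 pair (-1.51 and -2.32 without replicates 1 and 4, -0.69 and -1.55 without replicates 2 and 3). The smaller falls at Day 5 (-0.77, adjusted p = 0.000194), Day 7 (-0.47, adjusted p = 0.0174) and Day 14 (-0.62, adjusted p = 0.0015) were not called without Day 0 replicates 2 and 3 (-0.32, -0.03 and -0.11). The Day 7 call was also lost without replicate 2 alone (-0.38, adjusted p = 0.0694) or replicate 3 alone (-0.29, adjusted p = 0.133). Exact permutation tests of log2 CPM gave p = 0.114 at Day 5, 0.229 at Day 7 and 0.114 at Day 14. On Day 12 the log2 fold change was -0.06 (adjusted p = 0.778), -0.39 without replicates 1 and 4 and 0.39 without replicates 2 and 3, both called.

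**Figure D2:**
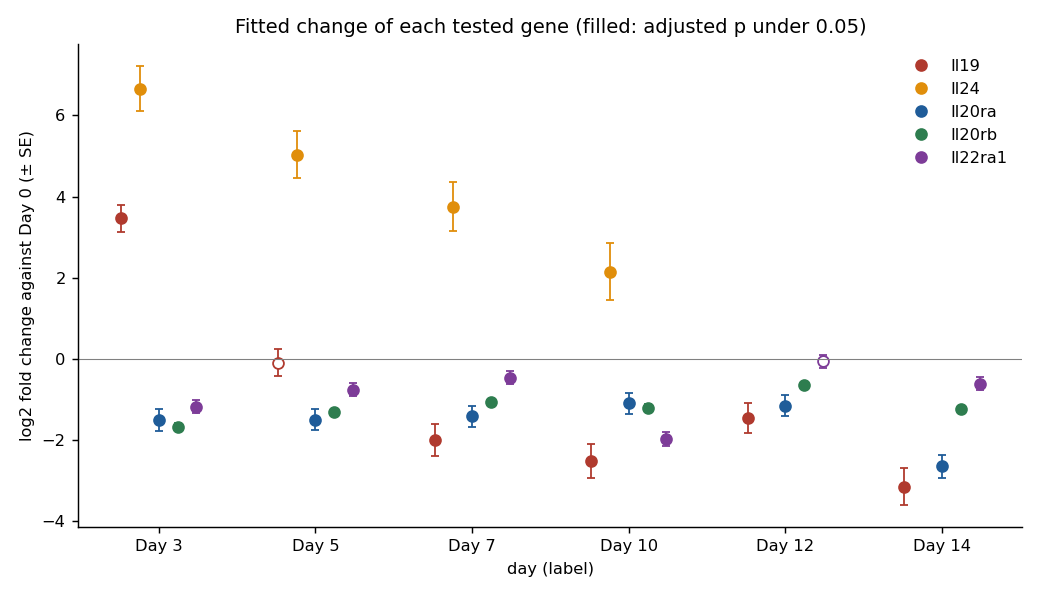
Log2 fold change against Day 0 (y axis, ± SE of the edgeR fit on 28 libraries) by labelled day (x axis) for the 5 tested genes, filled where adjusted p was under 0.05. Il24 on Days 12 and 14 is left out because both groups were near 0 counts. The ligands stand above 0 at Day 3 (3.46 and 6.66), and no receptor chain stands above 0 on any day.

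Most genes changed in these wounds, and the counts of members are to be read against that background. On Day 3, 2 of the 5 tested members were called higher and 3 lower, where 31.8% of all 18107 tested genes were called higher and 34.8% lower. On Day 5, 1 was higher and 3 were lower (29.0% and 30.6% of all genes). On Day 7, 1 was higher and 4 were lower (25.6% and 24.8%), and at Day 10 the counts were again 1 and 4 (23.5% and 26.9%). On Day 12, 0 were higher and 3 lower by edgeR (21.7% and 25.6%), and at Day 14, 0 were higher and 4 lower (28.2% and 34.5%). DESeq2 gave 0 higher on both of these days too, and no member was higher at an unadjusted p under 0.05. All 5 tested members differed between days in the joint test, with adjusted p from 1.69e-16 for Il19 to 8.26e-08 for Il20ra, as did 89.5% of all tested genes. By the study's criteria of a log2 fold change beyond 1.5 and an unadjusted p under 0.05, the members that passed numbered 4 at Day 3 (18.9% of all genes), 2 at Day 5 (13.9%), 2 at Day 7 (9.40%), 3 at Day 10 (9.47%), 0 at Day 12 (7.39%) and 2 at Day 14 (14.0%).

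Successive days, which leave the Day 0 libraries out of the contrast, showed where within the wound each gene moved. From Day 3 to Day 5 Il19 fell 11.8-fold (log2 fold change -3.56 ± 0.33, SE, adjusted p = 3.71e-09) and Il24 fell 3.09-fold (-1.63 ± 0.37, adjusted p = 0.00166). Il20rb rose 1.28-fold over the same step (adjusted p = 0.00259), while Il20ra (log2 fold change 0.01) and Il22ra1 (0.41, adjusted p = 0.071) did not pass, the latter passing without Day 3 replicate 1 or Day 5 replicate 4 (0.52 and 0.50). In this step 24.3% of all tested genes were called in either direction.

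From Day 5 to Day 7 Il19 fell 3.73-fold (adjusted p = 0.000573) and Il24 fell 2.43-fold (adjusted p = 0.0154), with 28.5% of all genes called. The Il24 call was lost without Day 7 replicate 4 (-1.06, adjusted p = 0.0578). Il20rb rose 1.19-fold (adjusted p = 0.0282), a call that was lost without Day 5 replicate 2 or 4 or without Day 7 replicate 2 or 4 (log2 fold changes 0.20 to 0.23). From Day 7 to Day 10 Il22ra1 fell 2.86-fold (adjusted p = 8.56e-08) and Il24 fell 3.05-fold (adjusted p = 0.00967), where 32.3% of all genes were called. Il19, Il20ra and Il20rb did not pass in that step, with log2 fold changes of -0.52, 0.32 and -0.14.

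From Day 10 to Day 12 Il22ra1 rose 3.79-fold (log2 fold change 1.92 ± 0.17, SE, adjusted p = 5.46e-10) and Il20rb rose 1.48-fold (adjusted p = 3.93e-06), with no overlap of libraries for either gene and 39.4% of all genes called. Il24 went from 53 to 2 counts summed over libraries, a ratio of 27.2 (exact 95% interval 7.17 to 230.0, counting error only), and was called lower (adjusted p = 0.000361). Il19 went from 36 to 83 counts summed over libraries, with all Day 12 libraries above those of Day 10. Its log2 fold change of 1.07 did not pass by edgeR (adjusted p = 0.0697) and passed by DESeq2 (1.08, adjusted p = 0.0252). From Day 12 to Day 14 4 members fell, Il19 3.25-fold (adjusted p = 0.00684), Il20ra 2.83-fold (adjusted p = 8.25e-05), Il20rb 1.52-fold (adjusted p = 1.79e-06) and Il22ra1 1.47-fold (adjusted p = 0.00585). In that step 45.2% of all genes were called.

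The amount of epidermis in a sample may differ between days, and the receptor chains were therefore also set against 12 pan-keratinocyte markers such as Krt5 and Krt14 in the same library. The summed markers had medians of 7859 CPM at Day 0, 5289 at Day 3, 5930 at Day 10 and 7630 at Day 14. Over Day 0 replicates 1 to 4 these sums were 9550, 5902, 6168 and 10360 CPM. Il20ra went with them (16.82, 7.43, 7.52 and 18.81 CPM). Il20rb was flat (72.77, 76.36, 80.71 and 76.59 CPM) and Il22ra1 went the opposite way (15.66, 21.15, 24.21 and 10.88 CPM). For Il20rb and Il22ra1 the subtraction may therefore not correct for the amount of epidermis. Relative to the mean log2 CPM of these markers, Il20rb was lower than at Day 0 by log2 differences of -1.13 at Day 3, -0.58 at Day 5, -0.42 at Day 7, -0.59 at Day 10, -0.54 at Day 12 and -1.24 at Day 14. All 4 libraries lay below all 4 Day 0 libraries each time (exact permutation test, 2-sided p = 0.0286, adjusted p = 0.0429 over 18 comparisons). The p of 0.0286 is the smallest that 4 against 4 allows. With basal layer markers only, the difference of Il20rb was larger at Day 10 (-0.87) and smaller at Day 14 (-0.91), and at Day 12 it was -0.10.

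Il20ra relative to the keratinocyte markers was lower without overlap at Day 3 (-0.90), Day 5 (-0.63), Day 7 (-0.65), Day 12 (-0.93) and Day 14 (-2.53), with the same exact p of 0.0286. With basal layer markers only, its Day 12 difference was -0.48. On Day 10 the difference was -0.36 and the libraries overlapped (exact permutation p = 0.229). Relative Il22ra1 was lower without overlap only at Day 10 among the 6 days (-1.29, exact p = 0.0286), and its differences on the other days ran from -0.58 to 0.24 with overlapping libraries. Its Day 0 values spread widely (SD 0.82), which limits these comparisons.

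**Figure D3:**
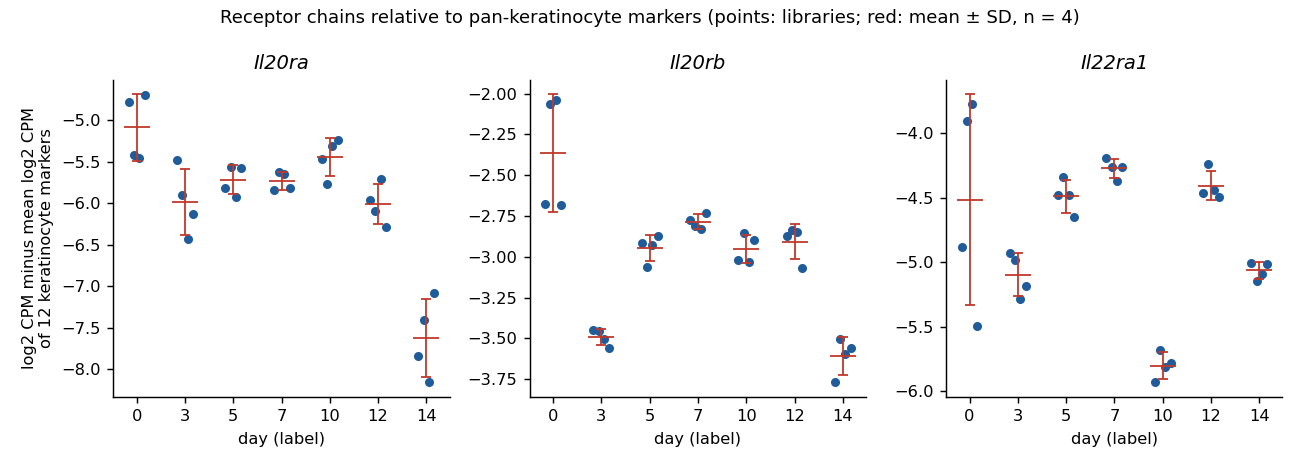
Log2 CPM of each receptor chain minus the mean log2 CPM of 12 pan-keratinocyte markers in the same library (y axis) by labelled day (x axis), with points for libraries and the mean ± SD of 4 in red. Il20ra reached its lowest value at Day 14 and Il22ra1 at Day 10, and the Day 0 libraries stand in pairs.

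Between the chains of the type I receptor, the log2 ratio of Il20rb to Il20ra counts was 2.73 ± 0.76 (SD, n = 4) at Day 0 and 4.02 ± 0.43 at Day 14, a difference of 1.29 without overlap (exact permutation p = 0.0286, adjusted p = 0.0857 over 12 comparisons). On the other days it differed from Day 0 by -0.23 to 0.38 with overlapping libraries.

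Marker levels of other cells also differed between the days. The 5 neutrophil markers summed to between 9.15 and 25.6 CPM at Day 0 and 1687 to 2051 CPM at Day 3, and their medians over Days 5, 7, 10, 12 and 14 were 747, 279.4, 111.9, 14.5 and 10.2 CPM. The 6 macrophage markers had a median of 2497 CPM at Day 0, 4799 at Day 3, 4985 at Day 5 and 865.4 at Day 14. The 7 hair follicle markers had medians of 705.2 CPM at Day 0, 10.5 at Day 3, 20.1 at Day 5, 1650 at Day 7, 304.8 at Day 10, 5519 at Day 12 and 5042 at Day 14. The 4 skeletal muscle markers had a median of 17830 CPM at Day 0 (13290 to 23780) and medians of 3123 to 6147 CPM on the later days, every library of which lay below all of Day 0, as was the case for Il20rb and Il20ra. The 4 adipocyte markers had medians of 2401 CPM at Day 0, 4880 at Day 3, 4909 at Day 5, 2234 at Day 12 and 4055 at Day 14. Of these, only Fabp4 was called higher at Day 3 and Day 5 (log2 fold changes 1.72 and 1.77). Adipoq was called lower on both days (-0.19 and -0.15), and Cidec and Plin1 were not called. Medians of the 4 fibroblast markers were 27970 CPM at Day 0, 11930 at Day 3, 33230 at Day 7 and 10850 at Day 14. At Day 3 Col1a1, Col1a2 and Dcn were called lower (log2 fold changes -1.11, -1.45 and -0.64) and Pdgfra higher (0.997). Medians of the 3 endothelial markers were 383 CPM at Day 0, 709.9 at Day 3 and 318.1 at Day 14. No marker of the lists for macrophage, hair follicle, skeletal muscle, adipocyte, fibroblast or endothelium was at 0 in any library, and at most 1 neutrophil marker was. The part of these cells in the results for the ligands and receptors was not tested.

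The gene lists that follow were chosen with earlier results of these data known. They are counted against the shares of all tested genes called higher and lower on the same day, given beside each count. With Day 0 replicates 1 and 4 left out, these shares were 31.5% and 32.6% at Day 3, 29.0% and 28.5% at Day 5, 24.6% and 24.8% at Day 10, 22.8% and 24.3% at Day 12, and 28.9% and 32.7% at Day 14. With replicates 2 and 3 left out, they were 32.1% and 29.5% at Day 3, 28.7% and 28.1% at Day 5, 20.9% and 24.9% at Day 10, 21.5% and 22.0% at Day 12, and 29.2% and 26.9% at Day 14. Counts without a pair are read against these.

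Of the 9 other ligand and receptor genes of the interleukin 10 family 6 were tested. At Day 3, 3 of the 6 were called higher and 2 lower (against 31.8% and 34.8% of all tested genes), with a median log2 fold change of 0.84 against -0.03 over all tested genes. At Day 14, 1 of the 6 was higher and 4 were lower (against 28.2% and 34.5%), with a median of -0.87 against -0.06. Each count covers few genes, and the Day 3 share of lower calls (33.3%) was close to that of all genes. Il22, a lymphocyte cytokine acting on keratinocytes, had 13, 17, 45 and 13 counts at Day 3 against 0, 1, 0 and 0 at Day 0, a ratio of 87.7 (exact 95% interval 15.3 to 3500.0, counting error only), and was called higher (adjusted p = 0.000105). The 5 T or NK cell markers summed to between 39.5 and 45.0 CPM at Day 0 and between 21.9 and 25.1 CPM at Day 3. Il22 had 0 counts in all Day 7 and Day 12 libraries and at most 8 in any other library outside Day 3. Its place among the 6 tested genes thus rested on its Day 3 counts. Its Day 3 call is therefore not separate support for the share of higher calls on that day. Iltifb, a close copy of Il22 with which reads may be shared, had 2 counts in all. Ifnl2 and Ifnl3 had 1 and 0 counts in all.

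Il10rb, the chain shared by the IL-10 and IL-22 receptors, rose at Day 3 by 1.18 ± 0.05 (log2, SE), with counts of 4369 to 4612 against 1853 to 2229 at Day 0, and Il10ra rose by 1.58 ± 0.11. The partner chains of Il22ra1 thus went opposite ways at Day 3, with Il10rb called higher and Il20rb called lower. On Day 14 Il10ra fell by 1.37 and Il10rb fell by 0.37. Il10, an anti-inflammatory cytokine, had 29 to 74 counts a library at Day 0 and 73 to 111 at Day 5, when it rose by 1.05 ± 0.30, a call that was lost without Day 0 replicates 2 and 3 (0.82, adjusted p = 0.0554). It fell by 1.28 at Day 10 and by 1.67 at Day 14. Il22ra2 fell from 661, 274, 304 and 559 counts at Day 0 to 97, 90, 103 and 80 at Day 3 (log2 fold change -2.24 ± 0.23) and 58, 89, 79 and 66 at Day 14 (-2.76 ± 0.24). It was also called lower at Day 5 (-0.92), Day 7 (-2.43), Day 10 (-1.23) and Day 12 (-1.09). Without Day 0 replicates 1 and 4 the Day 5 call (-0.23, adjusted p = 0.276) and the Day 12 call (-0.40, adjusted p = 0.0671) were lost, and those of Days 3, 7, 10 and 14 held (-1.55, -1.74, -0.54 and -2.07). At Day 5 its 5.11 to 7.80 CPM overlapped Day 0 replicates 2 and 3 (6.92 and 7.88 CPM). Without replicates 2 and 3 all 6 days were called lower. It had the same Day 0 split as its chromosomal neighbour Il20ra, replicates 1 and 4 being higher. Across the 28 libraries the log2 CPM of Il20ra and Il22ra2 had Pearson r = 0.80 and Spearman rho = 0.74, given as a description of libraries that share their day.

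**Figure D4:**
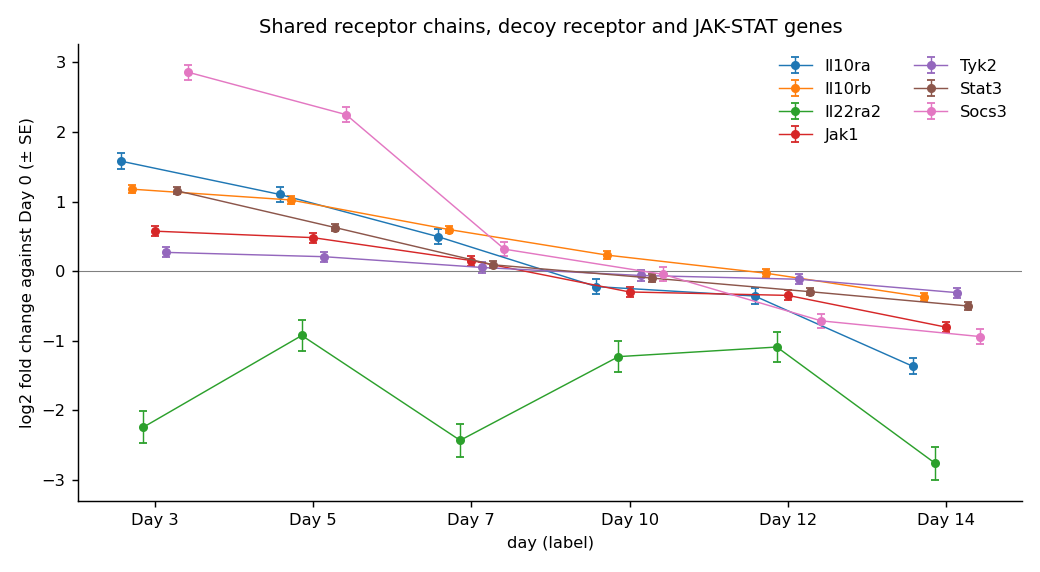
Log2 fold change against Day 0 (y axis, ± SE of the edgeR fit) by labelled day (x axis) for the shared receptor chains Il10ra and Il10rb, the decoy receptor Il22ra2, and Jak1, Tyk2, Stat3 and Socs3. Socs3 has the highest value at Day 3 (2.86), and Il22ra2 lies below 0 on all days.

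Of 17 genes of JAK-STAT signalling in general, a list that holds Jak1, Tyk2 and Stat3 beside kinases, STATs and inhibitors used by other cytokine receptors, all were tested, and 12 were called higher and 1 lower at Day 3 (70.6% and 5.9%, against 31.8% and 34.8% of all tested genes, median log2 fold change 0.51). At Day 14, 1 was higher and 13 were lower (5.9% and 76.5%, against 28.2% and 34.5%, median -0.38). The higher and lower counts were 11 and 1 at Day 5 (against 29.0% and 30.6% of all genes), 6 and 1 at Day 7 (25.6% and 24.8%), 2 and 6 at Day 10 (23.5% and 26.9%), and 1 and 10 at Day 12 (21.7% and 25.6%). The share of higher genes at Day 7 (35.3%) and that of lower genes at Day 10 (35.3%) were the nearest of these to those of all genes. They were 11 and 2 at Day 3 and 1 and 13 at Day 14 without Day 0 replicates 1 and 4, and without replicates 2 and 3 they were 14 and 0 at Day 3 and 2 and 11 at Day 14. Socs3, a feedback inhibitor induced by STAT3, rose at Day 3 by 2.86 ± 0.11, from 1017 to 1708 counts at Day 0 to 9056 to 9212, and fell by 0.94 at Day 14. Stat3 rose by 1.16, Jak1 by 0.57 and Tyk2 by 0.27 at Day 3, and at Day 14 they fell by 0.50, 0.81 and 0.31. Pias3, an inhibitor of STAT3, was the lowest of the list at Day 3 (-0.26), called with all libraries and not without Day 0 replicates 2 and 3 (-0.15, adjusted p = 0.190). On Day 14 Stat5b was the lowest (-1.12, called).

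Of 20 keratinocyte genes known to be raised by these cytokines, 17 were called higher and 0 lower at Day 3 (85.0% and 0.0%, against 31.8% and 34.8% of all tested genes, median log2 fold change 3.90), and no member was lower at an unadjusted p under 0.05. The counts were 16 and 2 at Day 5 (against 29.0% and 30.6% of all genes), 15 and 2 at Day 7 (25.6% and 24.8%), 12 and 4 at Day 10 (23.5% and 26.9%, the 4 lower genes being near that share), 5 and 5 at Day 12, and 5 and 8 at Day 14 (median -0.22). The shares at Day 12 (25.0% each way, against 21.7% and 25.6%) and at Day 14 (5 and 8 of 20, against 28.2% and 34.5%) were close to those of all genes. The Day 14 median turned with the Day 0 libraries used, being 0.42 without replicates 1 and 4 (8 higher, 6 lower) and -0.51 without replicates 2 and 3 (4 higher, 10 lower), while the Day 3 counts were 17 and 2, and 18 and 0. Cxcl5, a neutrophil chemokine, was the highest at Day 3 (9.05 ± 0.30), and Il1rl2, which encodes a receptor chain for IL-36, the lowest (-0.19 ± 0.10, not called). Without Day 0 replicates 1 and 4 Il1rl2 was called lower (-0.40, adjusted p = 0.000126), and its value was 0.11 without replicates 2 and 3 (adjusted p = 0.291). Ccl20, a chemokine for CCR6-bearing cells, was next at Day 3 (0.01 ± 0.57, not called). It was called lower without Day 0 replicates 1 and 4 (-0.86) and higher without replicates 2 and 3 (2.66). On Day 14 the serpin Serpinb3a was the highest (2.25) and Ccl20 the lowest (-4.05), a call that was lost without Day 0 replicates 2 and 3 (-1.37, adjusted p = 0.0936). S100a8 of this list is also a neutrophil marker, and S100a9 and Lcn2 are abundant in neutrophils as well. Other cytokines were also raised at Day 3, as given below, and the cytokine or cell type behind these changes was not tested.

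Of 9 tested genes of terminal differentiation known to be lowered by these cytokines, 1 was higher and 7 lower at Day 3 (11.1% and 77.8%, against 31.8% and 34.8% of all tested genes, median log2 fold change -1.0). At Day 14, 2 were higher and 7 lower (22.2% and 77.8%, against 28.2% and 34.5%, median -0.53), and at Day 7, 4 were higher and 3 lower (44.4% and 33.3%, against 25.6% and 24.8%, median 0.08). The counts were 3 and 5 at Day 5 (against 29.0% and 30.6% of all genes), 4 and 4 at Day 10 (23.5% and 26.9%), and 4 and 2 at Day 12 (21.7% and 25.6%). The higher share at Day 5 (33.3%) and the lower share at Day 12 (22.2%) were close to those of all genes. They became 1 and 6 at Day 3 and 2 and 7 at Day 14 without Day 0 replicates 1 and 4, and without replicates 2 and 3 they were 0 and 7 at Day 3 and 2 and 6 at Day 14. Krt10, a suprabasal keratin, was lowest at Day 3 (-2.06) and Casp14, a protease of the cornified layer, highest (0.35), a call that was lost without Day 0 replicates 2 and 3 (0.21, adjusted p = 0.178). On Day 14 Flg, which encodes filaggrin, was highest (2.06) and its relative Flg2 lowest (-2.62), so that members of the list went opposite ways. Whether these cytokines had a part in these changes was not tested.

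Of 13 cytokines known to induce the ligands 10 were tested, among them Il36g under its older symbol Il1f9. On Day 3, 8 were called higher and 1 lower (80.0% and 10.0%, against 31.8% and 34.8% of all tested genes, median log2 fold change 3.76). At Day 14, 1 was higher and 7 were lower (against 28.2% and 34.5%, median -1.0). The counts were 6 and 1 at Day 5 (against 29.0% and 30.6% of all genes) and at Day 7 (25.6% and 24.8%), 6 and 0 at Day 10 (23.5% and 26.9%), and 1 and 2 at Day 12 (21.7% and 25.6%), where the lower share was near that of all genes. Of the same 10 genes, 8 and 1 at Day 3, 6 and 2 at Day 5, 6 and 1 at Day 10, 1 and 3 at Day 12 and 0 and 7 at Day 14 were called without Day 0 replicates 1 and 4. Without replicates 2 and 3 they were 8 and 0 at Day 3, 9 and 0 at Day 5, 7 and 0 at Day 10, 1 and 1 at Day 12 and 2 and 5 at Day 14. With all libraries no tested gene of the list was lower at Day 10 at an unadjusted p under 0.05. Il6 was the highest at Day 3 (6.33 ± 0.35), and Tslp, an epithelial cytokine of type 2 responses, the lowest (-1.0 ± 0.26), a call that was lost without Day 0 replicates 2 and 3 (-0.08, adjusted p = 0.762). On Day 14 Il17f was the highest (2.04), a call that was lost without Day 0 replicates 1 and 4 (1.20, adjusted p = 0.0677), and Il1b the lowest (-2.73). Whether any of these cytokines acted on the ligands here was not tested.

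The genes nearest to each member over the 28 libraries, by Pearson r of log2 CPM, are given as a description, since libraries of a day share their state. Nearest to Il19 were Fgf7, a growth factor for keratinocytes (r = 0.94), Gfra1, a receptor of the GDNF family (0.93), and Il13ra2, a decoy receptor for IL-13 (0.92). Il13ra2 averaged 4.01 CPM at Day 0, 22.6 at Day 3 and 5.30 at Day 5, the same Day 3 peak as Il19. Nearest to Il24 were Gm41235 (r = 0.97), the signalling adaptor Traf1 (0.97) and the death-pathway protease Casp8 (0.97). Casp8 averaged 34.2 CPM at Day 0, 79.0 at Day 3, 53.2 at Day 7 and 32.6 at Day 14, a decline in steps like that of Il24.

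Nearest to Il20ra were Clca2 (r = 0.94) and the chromatin organizer Satb1 (0.89). Nearest to Il20rb were Bbox1, an enzyme of carnitine synthesis (0.97), Cobl, an actin nucleator (0.96), and Cd207, the langerin gene of Langerhans cells (0.96). Cd207 averaged 21.7 CPM at Day 0 and 4.59 at Day 3. Nearest to Il22ra1 were the keratin Krt23 (0.96), Elmod1 (0.94) and Xkrx (0.94). Krt23 averaged 71.2 CPM at Day 0, 45.6 at Day 7, 10.0 at Day 10 and 56.8 at Day 12, the same Day 10 low as Il22ra1. Among the members themselves r was 0.66 for Il19 with Il24, 0.65 for Il20ra with Il20rb, 0.64 for Il20rb with Il22ra1 and -0.64 for Il20rb with Il24.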

How the data were processed

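The authors deposited both tables that were used, one of whole-number read counts by gene symbol and one of FPKM values of the same rows and columns, where FPKM equals the count over a fixed gene length and the library total. RNA came from TRIzol extraction and the kit was VAHTS Universal V6. The submitters' processing notes list fastp, R 3.2.0 and build mm10. The aligner, counter, annotation and strandedness are not given in the sources used here, so overlapping genes can share reads. Depth was 36706513 to 40655764 counts a library. Exact intervals and the limit of 3 counts cover counting error only.

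The 28 libraries entered 1 edgeR 4.0.16 fit under R 4.3.3, with TMM factors, filterByExpr on the 7 days, 2-sided quasi-likelihood tests and 21 residual degrees of freedom. Benjamini-Hochberg adjustment ran over the 18107 genes left by the filter, and a call is an adjusted p under 0.05. Log2 CPM used a prior count of 2. Single values were compared by exact 2-sided permutation tests in scipy 1.17.1, 4 libraries against 4. The fit was tested on simulated counts. Alternatives were DESeq2 1.42.0, limma 3.58.1 on log2 FPKM, other normalizations and filters, a replicate block and leaving out libraries. Leaving out a pair of Day 0 libraries, for the 6 genes and the gene lists, was chosen after seeing the data.

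The members and gene lists were chosen with earlier results of these data known. Named were all members, their relatives (Il22, Iltifb, Il10, Il10ra, Il10rb, Il22ra2), Jak1, Tyk2, Stat3 and Socs3, the highest and lowest gene of each other list at Day 3 and Day 14, and the 3 genes with the highest r for each tested member. Il1f9, Ifnl2, Ifnl3, S100a8, S100a9 and Lcn2 were named outside this rule, after their values were seen. Results for 2 genes that the rule names are not reported here.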

Additional observations from a re-analysis of the deposited data

Results flagged for a closer look

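Within days, 34 groups of 4 CPM values of the members were searched for a library far from the others by Dixon's criterion, and 2 were found, where chance gives about 1.7 (1 in 20). Both were in Il22ra1. Day 5 replicate 4 had 8.48 CPM (313 counts) and was the lowest of its day, the others having 11 to 11.4 CPM. Day 12 replicate 2 had 19.8 CPM (874 counts) and was the highest of its day, the others having 16.3 to 16.5 CPM.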

How the results depend on the processing

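Depth limits Il20 on all days and Il24 on Days 0, 12 and 14, when they were near 0 counts. Of the values of single genes against Day 0 or between successive days under planned and added settings other than leave-one-out, 417 kept direction and call, 24 lost the call, 3 gained it and 9 turned; under leave-one-out, 395 kept both, 8 lost it, 2 gained it and 11 turned. The lost calls include those under the study's fold limit, which redefines a call and does not process the data anew. Values of genes not tested under a setting are not counted. Except for Il19 at Day 5 and Il22ra1 at Day 12 without Day 0 libraries 2 and 3, all values that turned were not called. These were the Il20ra log2 fold change from Day 3 to Day 5 (-0.003 with DESeq2 or its size factors, -0.186 to 0.277 with 1 replicate left out) and from Day 10 to Day 12 (-0.155 to 0.068), Il22ra1 at Day 12 (0.083 with no composition normalization, 0.096 by limma on log2(FPKM + 1) both on all genes and on those averaging at least 1 FPKM, 0.137 by limma on log2(FPKM + 0.1), 0.393 without Day 0 libraries 2 and 3, -0.221 to 0.122 with 1 replicate left out) and Il19 at Day 5 (0.054 by limma on log2(FPKM + 0.1), 0.922 without Day 0 libraries 2 and 3, -0.341 to 0.172 with 1 replicate left out). Relative to keratinocyte markers, Il22ra1 ranged from -0.299 to 0.273 at Day 5, from -0.082 to 0.49 at Day 7 and from -0.218 to 0.354 at Day 12 with 1 replicate left out. The log2 ratio of Il24 to Il20 rests on the count added, since Il20 had 0 to 6 counts a library, and differed from Day 0 by 6.948, 5.623, 3.688 and 0.184 at Days 5, 7, 10 and 12 with 0.5 added, so that it is not read as a result.

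Counts of members called higher at Days 3, 5, 7 and 10 became 0 where at least 10 counts in every library were required, since Il19 and Il24 were then not tested. DESeq2 called Il19 higher from Day 10 to Day 12 (adjusted p = 0.0252). It called 1 member lower from Day 5 to Day 7, Il24 losing its call (adjusted p = 0.0666). The 8-library edgeR fits called 0 higher at Day 10, where Il24 was not tested, and lost Il22ra1 at Days 7 and 14 (adjusted p = 0.0995 and 0.054). By the study's fold limit 1, 1, 2, 0 and 2 members were lower at Days 5, 7, 10, 12 and 14. Without Day 0 libraries 2 and 3 the higher counts were 2, 0 and 1 at Days 5, 10 and 12. With 1 replicate left out, the higher counts ranged from 0 to 1 at Day 10, from 1 to 2 from Day 3 to Day 5 and from 0 to 1 from Day 5 to Day 7, and the lower counts from 3 to 4 at Day 7 and from 1 to 2 from Day 5 to Day 7. Without composition normalization the median log2 fold change of all tested genes moved from -0.037 to 0.107 at Day 12 and from -0.056 to 0.07 at Day 14. Replicate numbers did not pair the libraries, since 1 of 84 pairs of the same number had a correlation of deviations over 0.1 and 8 of 28 libraries correlated best with their own number. A fit with a replicate block changed no call of the members, with 2 called higher and 3 lower at Day 3.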
